A study of Homo sapiens with 11 samples.

Results

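The carrier comparison set T47D cells given bovine serum albumin (BSA) beside untreated T47D cells, 1 array on each side. T47D cells are a long-established line from a human breast cancer and carry estrogen and progesterone receptors. These are 2 of the 11 arrays of the series, and they were paired because they lie in the same array set, described below. The BSA cells received 1 µM BSA for 3 h. The untreated cells had only a change of medium and were sampled after the same 3 h. All cells of the series had first been kept for 4 h in medium with 10% charcoal-stripped fetal bovine serum, and the treatments were given in such medium. The other arrays used here as a reference came from cells given 0.1% ethanol, 10 µM ICI, 10 µM G15, or 1 µM E2-BSA (estradiol coupled to BSA) alone, with ICI or with G15. The remaining 3 arrays, control 1, E2-BSA 1 and estradiol at 1 µM, lie in the other array set. ICI is named by this abbreviation alone in the labels, and G15 is known as an antagonist of the G protein-coupled estrogen receptor GPER1. With 1 array a side there is no replicate check, and every difference below is a size without a test.

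Serum albumin is the main protein of blood plasma and carries fatty acids, steroid hormones, bilirubin and metal ions. Coupling estradiol to BSA gives a conjugate that is used as a form of the hormone that does not cross the cell membrane, so BSA alone is the control for the protein part. Cells take up albumin through the receptors megalin and cubilin, encoded by LRP2 and CUBN, and recycle it through the neonatal Fc receptor, encoded by FCGRT. Fetal bovine serum itself contains bovine albumin, so the untreated cells were not free of it.

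Total RNA was measured on Affymetrix HG-U133 Plus 2 arrays, on which a gene is often covered by several probe sets that read different stretches of its transcripts. The deposited values are normalised and centred per probe set, so they show how arrays differ but not how strongly a gene is expressed. The markers of luminal breast epithelium could therefore not be checked as levels. Differences are given on a log2 scale, on which 1 is a 2-fold difference. The first principal component held 71.0% of the variance and put control 1, estradiol and E2-BSA 1 apart from the other 8 arrays, which include BSA and control 2. The labels name no batch. On the control probe sets for ACTB, which bear on RNA integrity, 5′ minus 3′ was -0.37 on control 2 and -0.26 on BSA. Both were below the other 6 arrays of the set, which ran from -0.08 to 0.00. The same measure for GAPDH was -0.13 on control 2 and -0.09 on BSA, inside the range of -0.28 to -0.01 of the others, and the 18S values of both also lay inside that of the others. The part of the ACTB difference in the results below was not tested.

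Few probe sets differed by 2-fold between BSA and the untreated control. Of 54613 probe sets, 42 were lower by 2-fold or more in BSA than in control 2 (0.0769%) and 0 were higher (0%). After quantile normalization of the 8 arrays the split was 22 lower and 9 higher. At 1.5-fold, 358 probe sets were lower (0.656%) and 90 higher (0.165%). When a gene was given the median over its probe sets, 0 of 19775 named genes reached 2-fold in either direction, 26 reached 1.5-fold lower and 11 reached 1.5-fold higher. The median gene stood at 0.01, and 53.1% of genes were above 0.

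The same counts for other single arrays give the scale for this difference. Minus control 2, ethanol had 91 probe sets higher by 2-fold (0.167%) and 19 lower (0.0348%), E2-BSA 2 had 41 higher (0.0751%) and 14 lower (0.0256%), and E2-BSA with G15 had 58 higher (0.106%) and 11 lower (0.0201%). ICI had 0 higher (0%) and 10 lower (0.0183%), G15 had 1 higher (0.00183%) and 13 lower (0.0238%), and E2-BSA with ICI had 4 in each direction (0.00732%). The 42 lower probe sets of BSA exceed the 4 to 19 of these arrays, while the number of both directions together lies within their 8 to 110.

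The array nearest to BSA by this count was ICI. BSA minus ICI had 2 probe sets higher (0.00366%) and 0 lower (0%), and BSA minus G15 had 2 higher (0.00366%) and 3 lower (0.00549%). BSA minus E2-BSA with ICI had 4 higher (0.00732%) and 22 lower (0.0403%). The count was larger against E2-BSA 2, with 15 higher (0.0275%) and 61 lower (0.112%), and against E2-BSA with G15, with 15 higher (0.0275%) and 72 lower (0.132%). The array farthest from BSA was ethanol, with 12 higher (0.022%) and 92 lower (0.168%). Against ICI and G15 BSA thus had 2 and 5 probe sets past 2-fold, fewer than the 42 against control 2.

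The spread of the difference over all probe sets was 0.185 (SD over probe sets) for BSA minus control 2. It was 0.174 to 0.221 for BSA minus the others and 0.183 to 0.212 for the others minus control 2, so the value for BSA and control 2 lay within both ranges. For BSA minus ICI it was 0.190 and for BSA minus G15 0.174. By this measure G15 was the nearest to BSA, and ICI was not nearer than control 2.

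**Figure D1:**
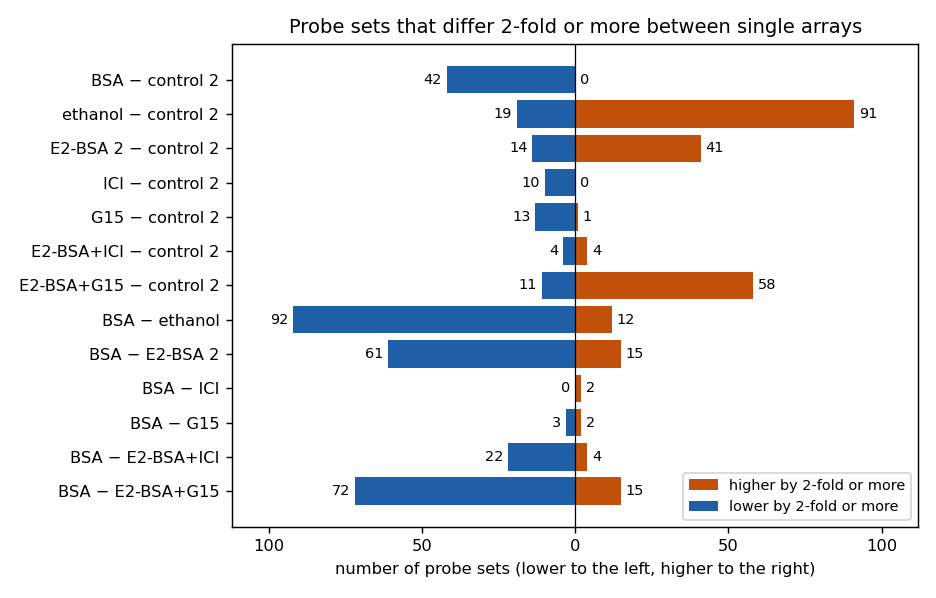
Number of probe sets higher (orange, right) or lower (blue, left) by 2-fold or more for 13 pairs of single arrays of the larger set. BSA minus control 2 has 42 lower and 0 higher, and BSA minus ICI has 0 lower and 2 higher.

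The lowest of the 42 probe sets was 242918_at of NASP, which encodes a histone chaperone. It read -1.87 on BSA and -0.01 on control 2, and the other 6 arrays ran from -1.06 to 0.01 with a median of -0.37. The difference was -1.86, or 3.63-fold lower, and BSA lay below every other array of the set while control 2 lay inside their range.

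The probe set 212107_s_at of DHX9, an RNA helicase gene, read -1.50 on BSA and 0.18 on control 2, with the other 6 arrays between -0.87 and -0.20 (median -0.41). It was 3.21-fold lower. For 1557227_s_at of TPR, which encodes a nuclear basket protein of the nuclear pore, BSA read -1.44 and control 2 0.09, with the others between -0.97 and -0.09 (median -0.60). In both genes the 2 arrays lay on opposite sides of all the others.

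MALAT1, a long noncoding RNA held in nuclear speckles, had 2 of the 42 probe sets. Its 224568_x_at read -1.40 on BSA and 0.07 on control 2, with the others between -1.10 and -0.07 (median -0.42), a 2.77-fold difference, and its 223940_x_at was at -1.23. For 242352_at of NIPBL, which loads cohesin onto chromosomes, BSA read -0.94 and control 2 0.49, with the others between -0.53 and 0.00 (median -0.37). In NIPBL the control array stood farther from the others than the BSA array did.

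The remaining members included CCDC186 (-1.36), ZBED6 (-1.31), the RNA-binding protein gene ZFR (-1.30), the anaphase-promoting complex gene CDC27 (-1.24), the spindle gene ASPM (-1.24) and EZR (-1.23), which encodes the membrane-cytoskeleton linker ezrin. SUPT16H (-1.21) encodes a subunit of the histone chaperone FACT, TOP1 (-1.20) a topoisomerase and RAD21 (-1.14) a cohesin subunit. DDX17 (-1.18), THRAP3 (-1.09) and CLK4 (-1.07) act in RNA processing, and EEA1 (-1.11) in early endosomes. Just inside the threshold lay 208624_s_at of the translation initiation gene EIF4G1 at -1.0001, and just outside it 231875_at of the kinesin gene KIF21A at -0.999. In all, 37 of the 42 probe sets had 1 gene symbol and covered 36 genes, and 5 had none.

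The 42 probe sets were chosen for BSA far below control 2, so the places of these 2 arrays among the others follow in part from that choice. BSA was the lowest of the 8 arrays in 40 of the 42 probe sets, and control 2 was the highest in 35. Both lay outside the range of the other 6 arrays in 33, BSA alone in 7 and control 2 alone in 2. Among all probe sets, which were not chosen in this way, 8.89% had both outside, 16.9% BSA alone and 15.1% control 2 alone. The 7 (16.7% of the 42) are near the share over all probe sets and the 2 (4.76%) are below it. Measured from the median of the other 6, BSA was lower by a median of -0.74 and control 2 higher by a median of 0.46. The BSA side was the larger in 36 of the 42, and it made up a median of 62.5% of the difference. Only NASP and DHX9 were 2-fold below that median on BSA alone, and 0 were 2-fold above it on control 2 alone.

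**Figure D2:**
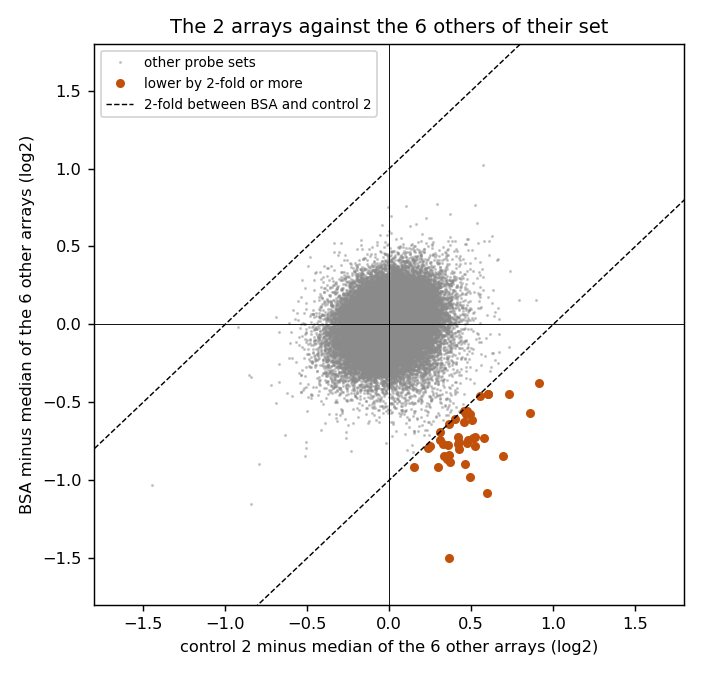
Each point is a probe set, placed by control 2 (horizontal) and BSA (vertical) minus the median of the other 6 arrays, in log2 units, with dashed lines at 2-fold between BSA and control 2. The 42 lower probe sets (orange) lie in the corner with control 2 above and BSA below the others.

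The other arrays filled the space between these ends. The median centred value of the 42 probe sets was 0.11 on control 2, -0.20 on E2-BSA with G15, -0.23 on E2-BSA 2, -0.25 on ethanol, -0.32 on E2-BSA with ICI, -0.40 on ICI, -0.61 on G15 and -1.07 on BSA. The 42 were chosen on the first and last of these, so their ends are not a finding. The other 6 arrays also lay below control 2, with medians of the differences from -0.31 to -0.74, and these differences share control 2 with the choice. Against ICI and G15, BSA was lower by medians of -0.62 and -0.42. On the smaller set the same probe sets had medians of 0.74 on control 1, 0.85 on estradiol and 0.52 on E2-BSA 1. These medians lay above those of every array of the larger set. The smaller set was also higher on the control probe sets given above.

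**Figure D3:**
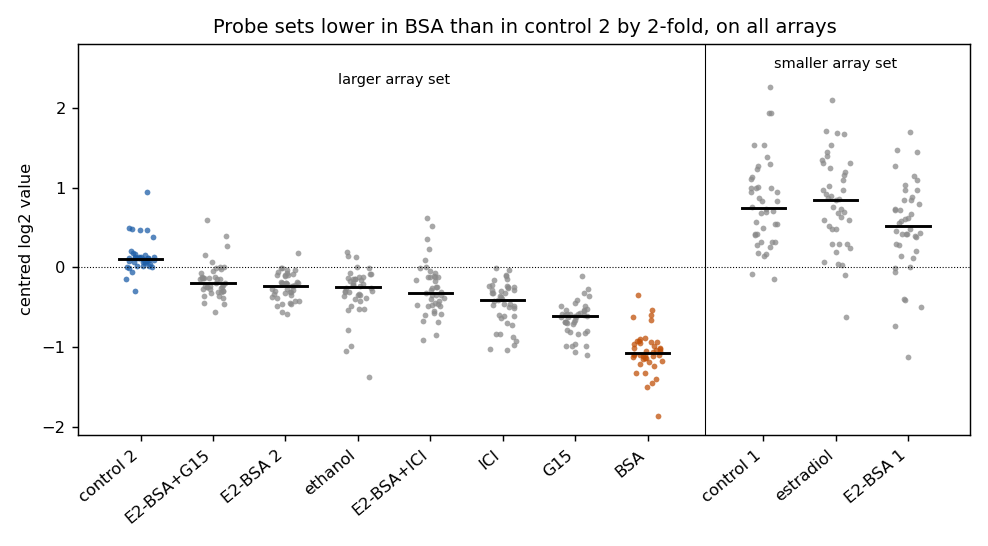
Centred log2 values of the 42 lower probe sets on all 11 arrays, with a black bar at the median of each. Control 2 (blue, median 0.11) and BSA (orange, median -1.07) are the ends by choice, and the smaller set, on the right, lies at medians from 0.52 to 0.85.

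Other probe sets of the same genes mostly did not share the difference. Each of the 36 genes had at least 1 further probe set, 101 in all. Their median for BSA minus control 2 was -0.02, with 78 within 0.25 of 0 and 13 at -0.50 or below. In 35 of the 36 genes at least 1 further probe set lay within 0.25 of 0, FAM111B being the exception. NASP had 201969_at at 0.00 and 201970_s_at at -0.07 beside the -1.86 of 242918_at. DHX9 had 202420_s_at at 0.08 and 212105_s_at at -0.34, and TOP1 had 208901_s_at at 0.05 beside -1.20.

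TPR had 201730_s_at at -0.83, and its other 3 probe sets lay between -0.09 and -0.02. The 12 probe sets of MALAT1 ran from -1.47 to 0.74, so they differed in both directions. The highest, 228582_x_at, read -0.19 on BSA and -0.93 on control 2, with the others between -0.80 and 0.16. There the control array was the one apart. Which stretches of the transcript the probe sets read could not be placed here. ASPM had 239002_at at -0.73 and 219918_s_at at 0.06. FAM111B was low in both of its probe sets (-1.18 and -0.57), read -0.999 on BSA and -0.13 on control 2 as a gene, and had the lowest gene value of all, -0.87. Probe sets whose names end in _s_at, which match several transcripts, made up 45.2% of the 42 and 20.7% of all.

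**Figure D4:**
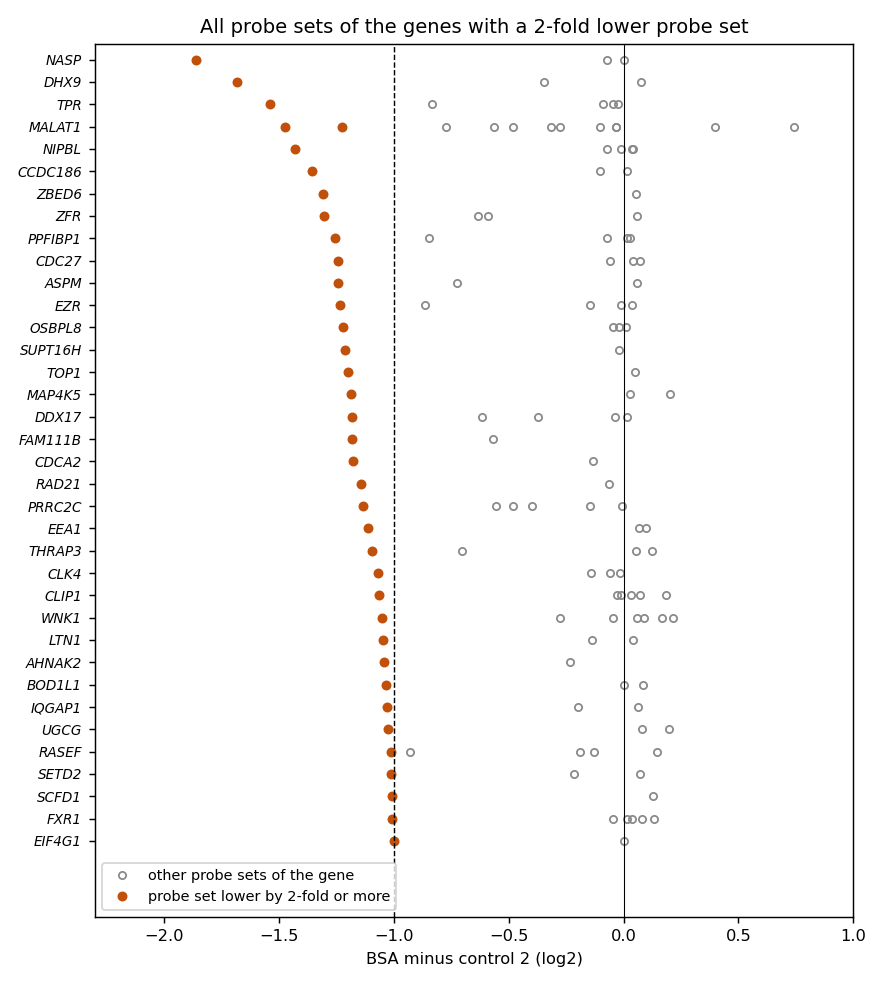
BSA minus control 2, in log2 units, for every probe set of the 36 genes with a 2-fold lower probe set (dashed line at -1). Filled points mark the 2-fold lower probe sets and open points the 101 others, 78 of which lie within 0.25 of 0.

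Genes whose probe sets all pointed the same way gave smaller values. Below control 2 were CHD4, a nucleosome remodelling ATPase gene (-0.58 over 3 probe sets), HSP90B1, which encodes the endoplasmic reticulum chaperone GRP94 (-0.50), the golgi gene ACBD3 (-0.51) and CEP290, a gene of the ciliary transition zone (-0.46). HSP90B1 read -0.58 on BSA, against -0.34 to -0.01 on the other 6 arrays and -0.08 on control 2, so the BSA array was the one apart. CHD4 read -0.54 on BSA and 0.07 on control 2, with the others between -0.23 and 0.00. The probe sets of a gene differed in size. Those of CHD4 ran from -0.65 to -0.01 and those of CEP290 from -0.73 to -0.20. ACBD3 had -0.87 and -0.16, and HSP90B1 had -0.53 and -0.48.

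Above control 2 were CYB5R4, a cytochrome b5 reductase gene (0.56), HSD17B6, a hydroxysteroid dehydrogenase gene (0.56), SGPP1, which encodes a sphingosine-1-phosphate phosphatase (0.52), the cytokine gene IL15 (0.40) and DNAJB9, a chaperone gene of the unfolded protein response (0.38). CYB5R4 read 0.32 on BSA and -0.24 on control 2, with the others between -0.15 and 0.05, so both arrays lay outside. HSD17B6 read 0.02 on BSA and -0.54 on control 2, with the others between -0.35 and 0.15, so control 2 alone lay outside. For SGPP1 both arrays lay inside the range of the others, and its probe sets were at 0.19 and 0.86. Those of IL15 were at 0.04 and 0.76, and those of CYB5R4 at 0.43 and 0.68. TNFAIP3, a gene of NF-kB feedback, was at 0.39 in this comparison, and its one high array was ethanol, at 2.41.

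Among genes with 1 probe set, SPRY2 was the highest of all at 0.82. It encodes an inhibitor of receptor tyrosine kinase signalling. It read -0.07 on BSA and -0.89 on control 2, and the other 6 arrays ran from -0.64 to 0.01. BSA lay inside that range and control 2 below it. HLX (0.62) had the same pattern. BBS12 (0.68), a gene of ciliary chaperonins, had BSA outside the range and control 2 inside it.

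In some genes BSA alone lay outside the range of the other 6 arrays. Among these, the highest values of BSA minus the median of the other 6 arrays were 0.63 for LY96, which encodes the endotoxin co-receptor MD-2, 0.59 for the protease inhibitor gene SPINK6, 0.53 for MATN3 and 0.51 for BST1. LY96 read 0.51 on BSA and -0.004 on control 2, with the others between -0.18 and 0.32. The lowest included IFI27 (-0.76), the noncoding RNA gene SWINGN (-0.75), ESCO1 (-0.70), FAM111B (-0.58), IFI6 (-0.57), POM121C (-0.54) and MATR3 (-0.51). SWINGN read -0.34 on BSA, near -0.27 on ethanol and -0.22 on ICI, with -0.09 on control 2 and 0.04 on G15. On the arrays with E2-BSA it read 0.79 to 0.96, so its distance from the median largely reflects those arrays. ESCO1 was read by 3 probe sets and FAM111B by 2. The ESCO1 probe sets did not agree, at -0.91, -0.77 and 0.08 for BSA minus control 2. In the one at -0.91, G15 read -0.92 and BSA -0.90. For ESCO1, BSA lay outside the range of the other 6 arrays by the gene median and in the probe set at -0.77 only.

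IFI27 and IFI6 are genes induced by interferon through the factor ISGF3, which binds the interferon-stimulated response element. Their RefSeq promoters (GRCh38.p14, 250 bases before to 50 after the gene start) are shown because both genes were lower on BSA than on the other arrays of the larger set. Capitals mark matches, on either strand, to a core of GAAA, any 2 bases and GAAA again, and matches may overlap. IFI27 lies at chr14:94110486-94110785 on the plus strand and IFI6 at chr1:27672143-27672442 on the minus strand.
IFI27: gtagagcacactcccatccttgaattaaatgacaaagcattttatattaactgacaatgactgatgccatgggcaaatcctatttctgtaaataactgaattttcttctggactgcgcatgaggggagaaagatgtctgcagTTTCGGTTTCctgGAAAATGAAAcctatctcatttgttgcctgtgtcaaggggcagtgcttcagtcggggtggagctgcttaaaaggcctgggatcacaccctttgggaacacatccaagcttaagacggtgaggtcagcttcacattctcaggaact
IFI6: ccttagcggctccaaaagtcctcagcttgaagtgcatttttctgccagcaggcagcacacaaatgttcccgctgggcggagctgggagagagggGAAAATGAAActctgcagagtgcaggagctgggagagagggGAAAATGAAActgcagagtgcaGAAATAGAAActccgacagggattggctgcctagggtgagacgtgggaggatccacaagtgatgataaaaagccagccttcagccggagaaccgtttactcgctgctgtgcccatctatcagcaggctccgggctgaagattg
IFI27 had 2 matches and IFI6 had 3, and 3.57% of all 35116 promoters in the table had at least 1. Of the 20 measured interferon-stimulated genes, 15 had a promoter in the table and 10 of these had a match, among them IFI44L, which was at 0.38.

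On the arrays, IFI27 read -0.76 on BSA, -0.02 on control 2, -0.68 on ICI, -0.18 on E2-BSA with G15, -0.01 on E2-BSA 2, 0.01 on E2-BSA with ICI, 0.81 on ethanol and 1.26 on G15. IFI6 read -0.54 on BSA, 0.10 on control 2, -0.39 on ICI, -0.38 on E2-BSA with G15, 0.07 on E2-BSA 2, -0.001 on E2-BSA with ICI, 0.68 on ethanol and 0.80 on G15. BSA was the lowest of the 8 arrays in both, followed by ICI, and ethanol and G15 were the high ones. Of the 20 interferon-stimulated genes, 6 were above 0 and the list median was -0.09. Over all genes 53.1% were above 0 and the median was 0.01. IFI27 (-0.74) and IFI6 (-0.64) were the only members lower by 1.5-fold, and RSAD2 (0.32) and IFI44L were on the other side.

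Of the albumin receptor genes, LRP2 and FCGRT were near the control and CUBN was higher. LRP2 read -0.13 on BSA and -0.05 on control 2, a difference of -0.07, and FCGRT read 0.11 and 0.17, a difference of -0.06. CUBN was at 0.29, with -0.01 on BSA, -0.30 on control 2 and the others between -0.33 and 0.01, so both arrays lay inside the range of the rest. CD36, which encodes a fatty acid and lipoprotein receptor, was at 0.29 over 5 probe sets, all higher on BSA. Of 17 measured genes of albumin uptake and endocytosis, 9 were above 0 and the median was 0.01. The share above 0 over all genes was 53.1%.

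Genes that respond to what albumin carries had medians between -0.02 and 0.07. Over all genes the median was 0.01 and 53.1% were above 0. Of 19 measured fatty acid and PPAR targets, 15 were above 0 with a median of 0.05. Of 18 genes of cholesterol synthesis, 8 were above 0 with a median of -0.02. Of 12 metallothionein and zinc genes, 9 were above 0 with a median of 0.07. Of 11 glucocorticoid targets, 6 were above 0 with a median of 0.05, and their highest was the kinase gene SGK1 at 0.40. SGK1 read -0.24 on BSA and -0.63 on control 2, and control 2 alone lay outside the range of the others. None of these 4 lists had a gene at 1.5-fold, which of all 19775 genes only 26 reached lower and 11 higher.

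Lists of stress and inflammatory genes also had medians near that of all genes. These were -0.01 for 19 NF-kB targets and cytokines, -0.01 for 28 immediate early genes, -0.03 for 19 genes of the integrated stress response, -0.03 for 15 genes of the unfolded protein and heat shock responses, 0.06 for 12 NRF2 targets and 0.03 for 12 p53 targets. Over all 33 lists the medians ran from -0.09 to 0.10, and 0 lists had a gene at 2-fold by its median. The latter follows from 0 of all 19775 genes reaching 2-fold.

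At the level of probe sets, 4 lists held any of the 42. Splicing and nuclear RNA-binding proteins had 5 (3.76% of the list's probe sets, against 0.0769% of all), in TPR, DHX9, NASP, DDX17 and CLK4. TPR, DHX9 and NASP were put on that list with earlier results of these data known, so their count is no independent evidence. Noncoding nuclear RNAs had 2 of 59, both MALAT1. Large chromatin proteins had 1 of 115, in SETD2, and mitosis genes had 1 of 53, in ASPM. By gene medians, 9 of 34 splicing genes were above 0 with a median of -0.07, and 16 of 28 mitosis genes with a median of 0.03. DNA replication genes had a median of -0.002 over 25. Over all genes 53.1% were above 0.

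The question that BSA as a control answers for E2-BSA is whether the carrier alone moves the hormone's targets. Probe sets responsive to hormone were taken from the smaller array set, which shares no array with this comparison. There, E2-BSA 1 minus control 1 had 107 probe sets higher by 2-fold (0.196%) and 45 lower (0.0824%), and estradiol minus control 1 had 101 higher (0.185%) and 12 lower (0.022%). Both comparisons shared 73 of the higher and 5 of the lower. In BSA minus control 2 the 73 had a median of 0.03 and ran from -0.46 to 0.51, with 42 above 0 and 0 at 2-fold. Over all probe sets the median was 0.01, 0% were higher by 2-fold and 0.0769% lower. With 0 higher over all probe sets, 0 higher among the 73 follows and is not a finding about them. In E2-BSA 2 minus control 2, which shares control 2 with the BSA comparison, the same 73 had a median of 0.82, with 72 above 0 and 26 at 2-fold. The 5 lower ones had a median of 0.07 with BSA and -0.99 with E2-BSA 2. Over all probe sets 0.0751% were higher by 2-fold in E2-BSA 2 minus control 2.

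Single targets are given by array. The potassium channel gene KCNK5 read -0.57 on BSA, -0.49 on control 2 and 1.42 on E2-BSA 2. MYC read -1.01 on BSA, -0.93 on control 2 and 0.77 on E2-BSA 2. The differences between BSA and control 2 were -0.08 and -0.09, and after quantile normalization both were above 0, at 0.06 and 0.24. The chemokine gene CXCL12 was at 0.02 with BSA.

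The probe set of RASGRP1, a Ras activator gene, was at -0.10 with BSA and 1.54 with E2-BSA 2. The highest value with BSA among the 73 was 0.51 for RET, a receptor tyrosine kinase gene, followed by 0.48 for SLC4A7, and the lowest was -0.46 for ARHGEF26. RET was at 1.45 with E2-BSA 2 and ARHGEF26 at 0.75. The RET probe set read -0.10 on BSA and -0.61 on control 2. Ethanol read -0.15, ICI -0.07 and G15 0.02, so control 2 was the one apart. For ARHGEF26, BSA read -0.97 and control 2 -0.51, both below all the others.

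**Figure D5:**
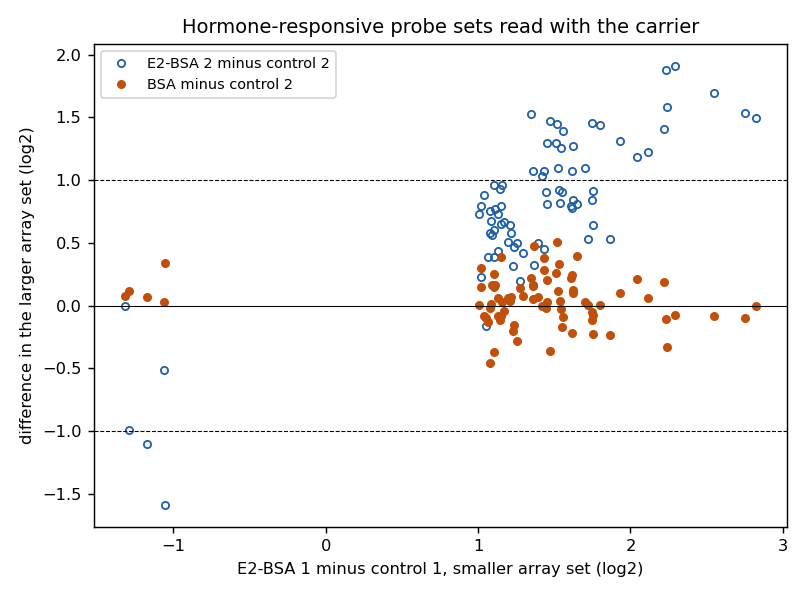
The 78 hormone-responsive probe sets chosen in the smaller array set, with E2-BSA 1 minus control 1 on the horizontal axis and the difference in the larger set on the vertical axis, both in log2 units, and dashed lines at 2-fold. BSA minus control 2 (filled) stays between -0.46 and 0.51, and E2-BSA 2 minus control 2 (open) reaches 1.91.

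Lists of known estrogen targets were read in the same way, beside the 53.1% of all genes above 0. Of 36 measured estrogen-induced genes, 18 were above 0 with a median of 0.01, and of 22 estrogen-repressed genes, 16 were above 0 with a median of 0.04. The members farthest from 0 were EGR3 (0.42), MAFF (0.34), ADRA2A (-0.33) and PLCL1 (0.32) of the induced, and SHISA2 (0.45) and GNAI1 (0.33) of the repressed. GNAI1, which encodes an inhibitory G protein subunit, read 0.57 on BSA, above 0.24 on control 2 and the range of -0.30 to 0.37 on the others. EGR3 read -0.08 on BSA and -0.50 on control 2, and PLCL1 read -0.07 and -0.39. In both, control 2 alone lay outside the range of the others. For MAFF, ADRA2A and SHISA2 both arrays lay inside that range. The receptor genes were at -0.11 for ESR1 (9 probe sets), -0.07 for GPER1 and 0.06 for PGR.

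Lists of cell type markers also had medians near that of all genes. The median was -0.05 for 12 markers of luminal epithelium, the type T47D comes from. For other cell types it was -0.05 for 5 basal, 0.00 for 9 fibroblast, 0.04 for 8 leukocyte and 0.10 for 6 endothelial markers. The members farthest from 0 in each direction were KRT14 (-0.44) and MYLK (0.15) of the basal, FAP (-0.33) and PDGFRB (0.16) of the fibroblast, NKG7 (-0.15) and CD14 (0.26) of the leukocyte, and TEK (-0.22) and CDH5 (0.40) of the endothelial markers. None of the 5 lists had a gene at 1.5-fold, which of all 19775 genes only 26 reached lower and 11 higher. Common reference genes had a median of 0.04 over 10.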

How the data were processed

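The authors deposited 1 table of normalised log2 values with 54675 probe sets for 11 arrays. The array type is given by the series' design text. How the values were summarised and normalised, and their log base, is not given in the sources used here. They were taken as log2 from their size and spread. Each probe set is centred, so no expression filter, level or pseudocount applies.

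The 62 control probe sets were dropped, leaving 54613. The platform's annotation gave 41091 of them 1 gene symbol, 1801 several and 11721 none, with symbols brought up to date by gene identifier for 41037 from RefSeq (GRCh38.p14). A gene's difference is the median over its probe sets with 1 symbol.

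BSA minus control 2 was computed with pandas 2.3.3 in Python 3.11.15, checked on simulated data, and counted at 2-fold. No p-value was computed. Array sets were split by the first principal component. Named genes were the 15 highest and 15 lowest with at least 2 probe sets in 1 direction, the 6 with 1 probe set, the 10 with BSA alone outside the other arrays, up to 4 members of lists, and a fixed set. Uncharacterised loci were passed over. Of 96 such genes those that carry the results are given. Some names were chosen after their values were seen, among them the members of the 42 probe sets beyond the rule and the hormone-responsive genes. Members and lists were chosen with earlier results of these data known. Promoter sequences and their positions came from a RefSeq table, and no genome-wide sequence was used.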

Additional observations from a re-analysis of the deposited data

How the results depend on the processing

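As deposited, 42 probe sets were lower and 0 higher, with control 2 alone outside the other arrays in 2 and BSA alone in 7. Quantile normalization gave 22 lower, 21 of them among the 42, and 9 higher, with control 2 alone in 6. All 42 stayed below 0 there, with a median of -1.01, and 0 genes reached 2-fold by their median. A threshold of 1.5-fold gave 358 lower and 90 higher. Without _x_at and _s_at probe sets 21 were lower, fewer being tested. With 1 gene symbol only, control 2 alone stood outside in 0. With the range of the other 6 arrays under 1, control 2 alone stood outside in 1 and BSA alone in 4. With the range taken from ethanol, ICI and G15, BSA alone stood outside in 2. Leaving out each of the 6 other arrays gave 1 to 2 for control 2 alone, the 1 without ethanol or without G15, and 5 to 7 for BSA alone. Setting array medians to 0 gave 43 lower and 0 higher. The causes of the other shifts were not tested. Of 96 named genes, MYC and KCNK5 changed sign under a scaling. Their values moved by more than the SD over the other 6 arrays in 6 under quantile normalization, 33 with the probe set of largest SD, 47 with BSA set against the median of the 6 others and 61 with BSA set against ethanol. All medians of the gene lists moved by less than the SD over the other 6 arrays under both scalings, and 6 of 33 moved by more with the probe set of largest SD. No paired analysis was possible because the comparison has 1 array a side and no test. Signal over background cannot be read from centred values.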

Other observations

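Genes of cohesin, the ring complex that holds sister chromatids together, were looked at after RAD21 and NIPBL were seen among the lower probe sets, so their values are a description of a list chosen on these data. Of 53 probe sets of 15 genes of cohesin, its loader, its regulators and the related SMC5-SMC6 complex, 2 were lower by 2-fold, 8 by 1.5-fold, and 0 were higher by 1.5-fold. Over all probe sets 0.0769% were lower by 2-fold, 0.656% lower by 1.5-fold and 0.165% higher by 1.5-fold. Beside NIPBL (-1.43) and RAD21 (-1.14) these were SMC5 at -0.98, SMC3 at -0.94 and -0.90, the cohesin acetyltransferase genes ESCO1 at -0.91 and -0.77 and ESCO2 at -0.74. The median over the 53 probe sets was -0.02, so most did not share the difference. By gene medians the list stood at -0.04, with 6 of 15 genes above 0, beside 53.1% of all genes.

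The highest single probe set of BSA minus control 2 was 212977_at of ACKR3, which encodes a scavenging receptor of the chemokine CXCL12, at 0.92. It read 0.07 on BSA and -0.84 on control 2, with the other 6 arrays between -0.51 and 0.15. Control 2 alone thus lay outside their range. The gene's median over 3 probe sets was -0.03. The next, 237444_at of the kinesin gene KIF13A at 0.91, read -0.08 on BSA and -0.99 on control 2, with the other 6 arrays between -0.48 and 0.01, so the control array was the one apart. The probe set 205992_s_at of IL15 was at 0.76, with 0.38 on BSA, -0.38 on control 2 and the others between -0.65 and 0.11, so here BSA was the one apart.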
